A study of Rattus norvegicus with 14 samples.

Results

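The interferon response genes described here are a list of 34 genes that carry the interferon signal, sense viral RNA or are switched on by interferon. Of these, 30 were measured among the 14506 genes tested, each by the only probe that carries its symbol alone, and Samhd1, Parp14, Xaf1 and Tap1bp were not analysed here. The list, and the choice of extract rats 1 and 4 as the animals whose weight in the group mean is followed, were made with results of these data known, so the values without those rats are a description.

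Liver RNA came from 14 lean female Zucker rats of genotype fa/+, about 15 weeks old, which carry 1 copy of the fa mutation of the leptin receptor and do not become obese. The 7 control rats ate a standard diet, and the 7 extract rats ate the same diet with a carnosic acid-rich rosemary extract (40% carnosic acid, a phenolic diterpene) at 0.05% of the diet by weight, for 64 days; the series title gives 0.5%. Each rat gave 1 Affymetrix array, and the values are log2 RMA values, on which a difference of 1 is a 2-fold difference in signal. The comparison asks whether the extract changed gene expression in the liver.

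Interferons are secreted proteins that warn cells of viral infection. Type I interferons act through the kinases JAK1 and TYK2 on a complex that includes STAT2 and IRF9 and binds the interferon-stimulated response element (ISRE) in promoters, and the response to interferon gamma acts on the gamma-activated site (GAS). The induced genes include RNA sensors, antiviral enzymes, the ubiquitin-like protein ISG15 and further transcription factors such as IRF7, and healthy liver expresses many of them at a low basal level.

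The 4 promoters below are shown because they belong to genes whose values are given rat by rat and hold one of these elements in the 250 bases before the transcription start. They are from RefSeq (GRCr8 build), written 5′ to 3′ on the strand of the gene, with matches to the ISRE core (GAAANNGAA, or TTCNNTTTC on the other strand) and to the GAS (TTCNNNGAA, the same on both strands) in capitals.
Irf1, chr10:38417685-38417934, plus strand, with a GAS whose first base lies 142 bases before the start: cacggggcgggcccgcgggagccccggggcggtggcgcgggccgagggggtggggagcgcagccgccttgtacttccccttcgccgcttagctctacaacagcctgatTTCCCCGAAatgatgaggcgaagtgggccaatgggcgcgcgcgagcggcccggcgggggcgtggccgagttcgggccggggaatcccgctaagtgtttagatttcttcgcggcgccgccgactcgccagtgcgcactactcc
Irf7, chr1:205800024-205800273, minus strand, with an ISRE core at 68 bases: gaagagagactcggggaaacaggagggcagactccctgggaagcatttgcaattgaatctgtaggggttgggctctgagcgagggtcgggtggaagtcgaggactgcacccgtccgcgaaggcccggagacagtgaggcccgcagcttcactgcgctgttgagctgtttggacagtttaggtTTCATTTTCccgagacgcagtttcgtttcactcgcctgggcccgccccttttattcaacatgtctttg
Oas1a, chr12:41330216-41330465, plus strand, with overlapping ISRE cores at 41 and 35 bases and a GAS at 199 bases: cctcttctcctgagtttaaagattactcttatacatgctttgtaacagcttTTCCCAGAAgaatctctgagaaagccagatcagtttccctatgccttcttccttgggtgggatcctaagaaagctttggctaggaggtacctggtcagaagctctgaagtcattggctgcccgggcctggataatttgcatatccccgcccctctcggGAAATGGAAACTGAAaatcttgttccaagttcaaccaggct
Rsad2, chr6:48788121-48788370, minus strand, with an ISRE core at 146 bases: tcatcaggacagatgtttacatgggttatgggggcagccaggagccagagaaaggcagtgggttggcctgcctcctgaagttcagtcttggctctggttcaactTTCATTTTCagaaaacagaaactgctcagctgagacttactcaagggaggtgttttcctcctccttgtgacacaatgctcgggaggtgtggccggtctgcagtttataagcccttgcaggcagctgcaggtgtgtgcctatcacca

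Of the 30 measured members, 21 had a promoter in the table. Isg15, Rtp4, Usp18, Mx2, Oas2, Ifit1, Ifit2, Dhx58 and Adar had none there, so they were not searched for either element. The ISRE core occurred in 12 of them (57.1%), against 8.12% of all 33469 promoters, and the GAS in 5 (23.8%), against 7.67%. The members with an ISRE core were Irf7, Ifih1, Eif2ak2, Ifit3, Oas1a, Oas1b, Rsad2, Bst2, Gbp2, Cxcl10, Ifi27 and Ifi44, and those with a GAS were Irf1, Irf9, Oas1a, Oas1b and Bst2. An ISRE core and a GAS overlapped each other in Bst2 alone. These are letter matches within the window and not measured sites.

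The arrays were alike in level: their medians over all probes lay between 5.02 and 5.15, and the correlation of any 2 arrays over the genes was at least 0.984. The mean of 8 hepatocyte markers lay between 12.98 and 13.12 in all 14 livers. In limma's array weights, where a low weight marks an array that departs from its group, control rat 1 (0.410) and extract rat 4 (0.463) were lowest, while extract rat 1 had 1.49. Over all genes, control rat 1 was the lowest of the 14 rats in 15.7%.

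Most interferon response genes were lower in the extract group, by amounts that few single genes carried past the test. The log2 fold (extract minus control) was negative in 27 of 30 members, where 50.3% of all genes were negative, and the median was -0.19 against -0.00088 over all genes. Whole liver was measured, so fewer cells of a type and less RNA per cell cannot be told apart. At an adjusted p under 0.05 (limma, Benjamini-Hochberg over all genes), 2 members, Isg15 and Rtp4, fell, against 1.15% of all genes. With Irf1 and Oasl, 4 members were lower at an unadjusted p under 0.05, against 7.40%. No member was higher at an adjusted p under 0.05 (2.00% of all genes) or at an unadjusted one (7.45%). In 0 members did all 7 extract rats lie below all 7 controls, a separation seen in 0.455% of genes. The median standard error of a member's log2 fold was 0.15, against 0.087 over all genes, so a given fold was measured less precisely in these genes.

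**Figure D1:**
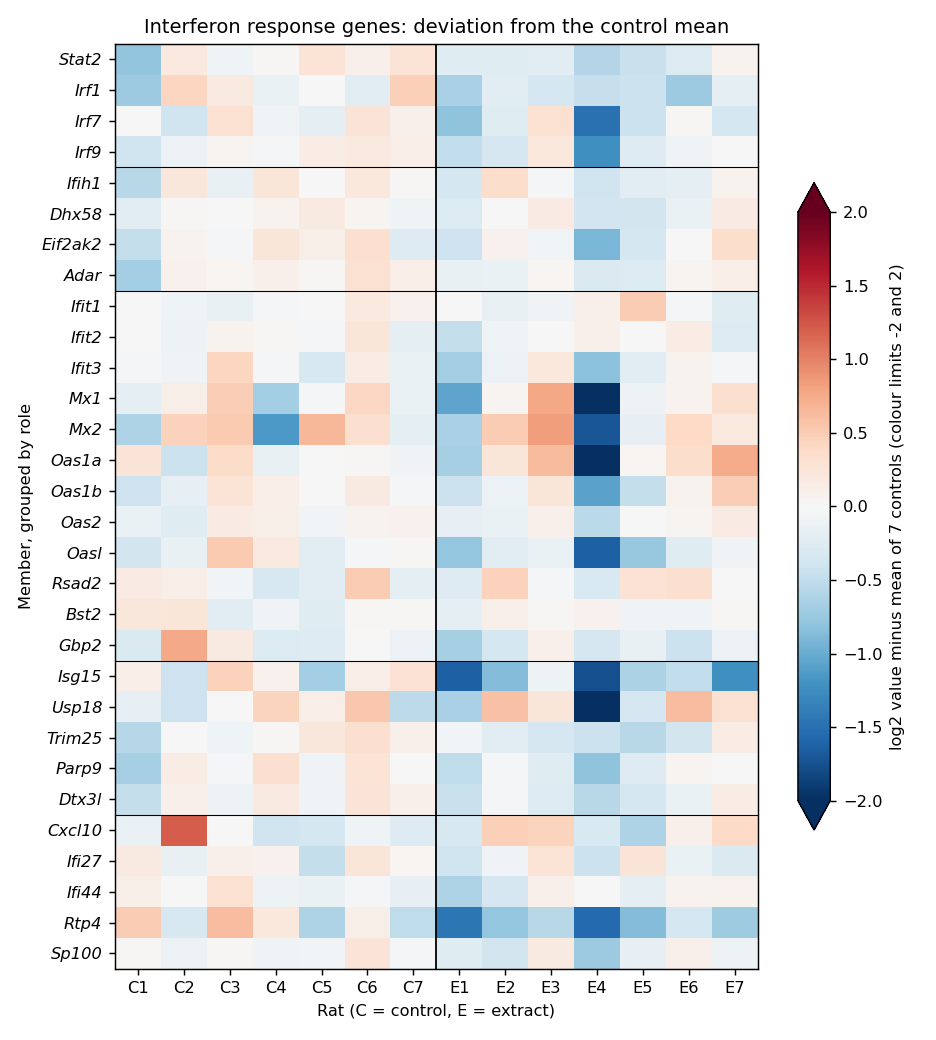
Log2 value of each of the 30 measured members (rows, grouped by role) in each of the 14 rats (columns, C1 to C7 control and E1 to E7 extract) minus the mean of the 7 controls; blue is lower and red higher, with the colour scale ending at -2 and 2. The column of extract rat 4 is blue in 27 rows and that of extract rat 1 in all 30, while control rat 1 is blue in rows such as Stat2, Irf1 and Adar.

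A score of each rat, the mean over the 30 members of its deviation from the control mean, shows how unevenly the extract animals contributed. The controls scored from -0.21 (rat 1) to 0.18 (rat 6), with an SD of 0.13 (n = 7). The extract rats scored -0.85 (rat 4), -0.52 (rat 1), -0.25 (rat 5), -0.074 (rat 2), -0.037 (rat 6), 0.0064 (rat 7) and 0.082 (rat 3). Extract rats 4, 1 and 5 thus lay below every control and the other 4 lay within the control range. The extract mean was -0.24 ± 0.34 (SD, n = 7).

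Extract rats 1 and 4 together supplied 83.2% of the summed deviation of the 7 extract rats (51.4% from rat 4 and 31.8% from rat 1), where equal shares would give 28.6%. The other 5 extract rats had a mean score of -0.055 ± 0.12 (SD, n = 5), smaller than the SD of the controls. Without extract rat 4 alone the group difference was -0.13, and without extract rat 1 alone it was -0.19. Leaving out the lowest animals raises a group mean by construction, so the size of what is left is the point of these values. With the median over members in place of the mean the difference was -0.19, and with each member scaled by its SD within groups it was -0.64 SD units, or -0.22 without both rats; these versions were added after the data had been seen.

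**Figure D2:**
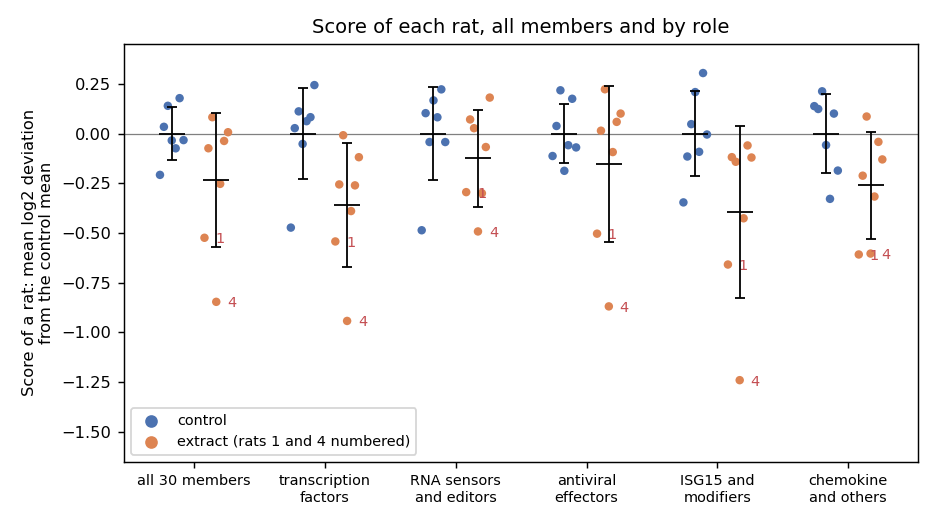
Score of each rat (mean log2 deviation from the control mean, vertical axis) over all 30 members and over each role, for 7 control and 7 extract rats, with bars for the mean and SD and with extract rats 1 and 4 numbered. Over all members extract rat 4 lies at -0.85 and extract rat 1 at -0.52, and in the ISG15 group extract rat 4 lies at -1.24.

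The low values of the 2 animals ran through most of the list. Extract rat 1 was below the control mean in 30 of 30 members, against 53.3% of all genes, and extract rat 4 in 27, against 47.4%; the exceptions in rat 4 were Ifit1, Ifit2 and Bst2. Extract rat 4 lay below all 7 controls in 18 members (15.2% of all genes) and extract rat 1 in 15 (12.5%). Extract rat 4 was the lowest of all 14 rats in 17 members (9.83% of all genes), among them Irf7, Irf9, Mx1, Mx2, Oas1a, Usp18 and Sp100. Extract rat 1 was lowest in 3, Ifit2, Gbp2 and Ifi44 (4.98% of all genes). In Ifit2 and Ifi44 extract rat 4 did not share the low value: its Ifit2 was 8.62 against 8.04 in rat 1, and its Ifi44 7.46 against 6.84. In Gbp2 it did, at 6.50 against 6.18 in rat 1 and at least 6.55 in controls.

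Of the transcription factors, which carry the signal to the promoters, all 4 had a negative fold and 0 passed the adjusted threshold. Irf1, which interferon gamma induces and whose promoter with its GAS is printed above, ranged from 7.94 (median 8.66) to 9.13 in controls and from 7.93 (median 8.23) to 8.47 in extract rats. All 7 extract rats lay below the control mean of Irf1, and the groups overlapped, with control rat 1, at 7.94, 2nd lowest of the 14 and extract rats 2 and 7 above control rat 6. The log2 fold of Irf1 was -0.43 ± 0.15 (SE, adjusted p = 0.16 in limma). Without control rat 1 it was -0.55 (adjusted p = 0.013), and with array weights -0.51 (adjusted p = 0.025). Control rat 1 was the lowest control in Irf1, so leaving it out makes the fall larger by construction.

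Irf7, the factor that amplifies type I interferon production, ranged from 7.36 (median 7.77) to 8.06 in controls and from 6.26 (median 7.41) to 8.07 in extract rats. Extract rats 4 (6.26), 1 (6.95) and 5 (7.33) lay below all controls, while extract rat 3 was the highest of the 14. Its log2 fold of -0.43 ± 0.21 (SE, adjusted p = 0.35) was -0.14 without extract rats 1 and 4. Irf9, the DNA-binding partner of STAT2, went the same way, from -0.31 to -0.087, with extract rat 4 at 6.80 and every other rat at or above 7.54. Stat2 had a log2 fold of -0.27 (adjusted p = 0.38), which was -0.22 without extract rats 1 and 4. Control rat 1 held its lowest value, 8.32, with the next control at 9.02, and without that control Stat2 was called (-0.41, adjusted p = 0.018). As in Irf1, leaving out the lowest control makes the fall larger by construction.

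Among the sensors and editors of RNA, all 4 folds were negative, with a median of -0.12, and 0 passed. These are Ifih1 (MDA5) and Dhx58 (LGP2), sensors of double-stranded RNA, Eif2ak2 (PKR), a kinase that stops translation, and Adar, which edits adenosine in RNA. Their log2 folds ran from -0.18 (Eif2ak2) to -0.086 (Adar) in the full comparison and from -0.040 (Dhx58) to 0.0090 (Eif2ak2) without extract rats 1 and 4. For Eif2ak2 the deviations of extract rats 1 and 4 from the control mean were -0.41 and -0.91.

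Of the 12 measured antiviral effectors, 10 had a negative fold and 0 passed the adjusted threshold. This group held the most members whose lower mean rested on the 2 rats alone: without them its median fold was 0.018, against -0.095 with all 14 rats. Oasl, a relative of the 2′-5′ oligoadenylate synthetases, ranged from 6.64 (median 6.98) to 7.52 in controls and from 5.37 (median 6.76) to 6.93 in extract rats. All 7 extract rats lay below its control mean, and rats 4, 1 and 5 below all controls. Its log2 fold was -0.55 ± 0.20 (SE, adjusted p = 0.18), of which 62.6% came from extract rats 1 and 4, and -0.29 without them (adjusted p = 0.40).

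Oas1a, a synthetase that activates RNase L and whose promoter is shown above with its paired ISRE cores, ranged from 7.57 (median 8.0) to 8.36 in controls and from 5.94 (median 8.25) to 8.75 in extract rats. Extract rat 4 (5.94) and extract rat 1 (7.33) lay below all controls, and the other 5 lay between 8.04 and 8.75, all above the control mean. The log2 fold was -0.10 ± 0.32 (SE, adjusted p = 0.93) over all 14 rats and 0.40 ± 0.14 without rats 1 and 4 (unadjusted p = 0.011, adjusted p = 0.17). It was the 1 member higher at an unadjusted p under 0.05 in that smaller comparison, against 7.65% of all genes.

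Mx1 and Mx2, dynamin-like GTPases that block viruses, were also lowest in extract rat 4. The lowest Mx1 value was 4.48 in extract rat 4 and the next 5.63 in extract rat 1, with the controls between 6.01 and 7.18, and the log2 fold changed from -0.31 to 0.22 without both. For Mx2 it changed from -0.085 to 0.35. Mx2 also varied widely among the controls, from 7.13 to 8.94, so that extract rat 1, at 7.63, lay within their range. Oas1b changed from -0.19 to 0.041, Oas2 from -0.076 to 0.036, and Ifit3, a protein that binds viral RNA, from -0.23 to -0.022. Oas1a, Oas1b and Oas2 belong to 1 gene cluster and are related in sequence, as are the Mx pair and the Ifit genes; whether their probes share signal was not tested.

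Of the remaining effectors, Rsad2 (viperin, an enzyme that makes a chain-ending nucleotide) had the largest positive fold, 0.072 ± 0.14 (SE, adjusted p = 0.89), with controls from 5.23 (median 5.50) to 6.06 and extract rats from 5.24 (median 5.57) to 6.01. The groups overlapped throughout, with extract rats 4 (5.24) and 1 (5.30) again lowest among extract animals. Ifit2 had a log2 fold of -0.089, and Bst2 (tetherin, which holds budding virions at the membrane) of -0.015, a sign that turned with repeated quantile normalization and with median centring. Ifit1 had one of 0.011 at a mean of 3.34 in controls, below 5.1, the median of all probes, so a change in it would be hard to see. Gbp2, a GTPase induced chiefly by interferon gamma, had 4 of 7 extract rats below all controls, with a log2 fold of -0.28 (adjusted p = 0.41) and -0.19 without extract rats 1 and 4.

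The ISG15 group holds the larger of the 2 falls. Isg15, a ubiquitin-like protein that is joined to other proteins, ranged from 7.36 (median 8.17) to 8.49 in controls and from 6.28 (median 7.17) to 7.93 in extract rats. Extract rats 4 (6.28), 1 (6.40), 7 (6.81) and 2 (7.17) lay below all controls, and extract rat 3 (7.93) was the highest of the treated animals. Isg15 fell 1.95-fold, with group means of 8.04 ± 0.40 in controls and 7.08 ± 0.61 in extract rats (SD, n = 7 each). Its log2 fold was -0.96 ± 0.23 by limma's SE, with an adjusted p of 0.029. Rats 1 and 4 supplied 50.5% of this, and without them the log2 fold was -0.67 ± 0.20 (unadjusted p = 0.0045, adjusted p = 0.11). Isg15 did not pass, either, when any one of control rats 3, 4, 6 and 7 or of extract rats 1, 2, 4 and 7 was left out, with adjusted p from 0.052 to 0.071, or with array weights (0.067), while its log2 fold stayed between -1.10 and -0.83 over the 14 fits that leave out 1 rat.

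The other members of that group, enzymes that attach or remove ISG15, ubiquitin or ADP-ribose, did not pass. Usp18, the protease that removes ISG15 and restrains the interferon receptor, was 4.31 in extract rat 4, with the next extract value at 6.32 and the controls from 6.43 to 7.50. Its log2 fold was -0.27 over all 14 rats and 0.29 without extract rats 1 and 4. Trim25, a ubiquitin ligase that activates the sensor RIG-I, ranged from 9.41 (median 9.997) to 10.30 in controls and from 9.42 (median 9.64) to 10.13 in extract rats. The lowest control was again control rat 1, and 6 of 7 extract rats lay below the control mean. The log2 fold of Trim25 was -0.26 ± 0.13 (SE, adjusted p = 0.35) and -0.26 without extract rats 1 and 4, so it did not rest on those animals. Parp9 and Dtx3l, which form 1 enzyme complex and are neighbouring genes, had log2 folds of -0.25 and -0.23, and of -0.093 and -0.13 without both rats.

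In the last group, of a chemokine and other induced genes, Rtp4 fell and 4 members did not pass. Rtp4, a receptor transporter protein induced by interferon, ranged from 8.08 (median 8.81) to 9.31 in controls and from 7.15 (median 7.93) to 8.35 in extract rats. Extract rats 4 (7.15), 1 (7.25), 5 (7.83), 2 (7.93) and 7 (7.98) lay below all controls, and extract rats 3 (8.14) and 6 (8.35) within the control range. Rtp4 fell 1.86-fold, with group means of 8.70 ± 0.49 in controls and 7.80 ± 0.45 in extract rats (SD, n = 7 each). Its log2 fold was -0.89 ± 0.21 by limma's SE, with an adjusted p of 0.026. Without extract rats 1 and 4 the log2 fold was -0.65 ± 0.20 (unadjusted p = 0.0047, adjusted p = 0.11). Leaving out any one of control rats 3, 4 and 6, or extract rat 1, lost the call as well, with adjusted p from 0.053 to 0.061.

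Sp100, a nuclear body protein, had a log2 fold of -0.19 (adjusted p = 0.47), with 4 of 7 extract rats below all controls, and Ifi44 one of -0.13. Ifi27, a small mitochondrial protein, had one of -0.11 that was 0.0079 without extract rats 1 and 4. Cxcl10, the chemokine that draws T cells, had one of 0.024. Control rat 2 held the highest Cxcl10 value, 8.43, with the next control at 7.22.

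**Figure D3:**
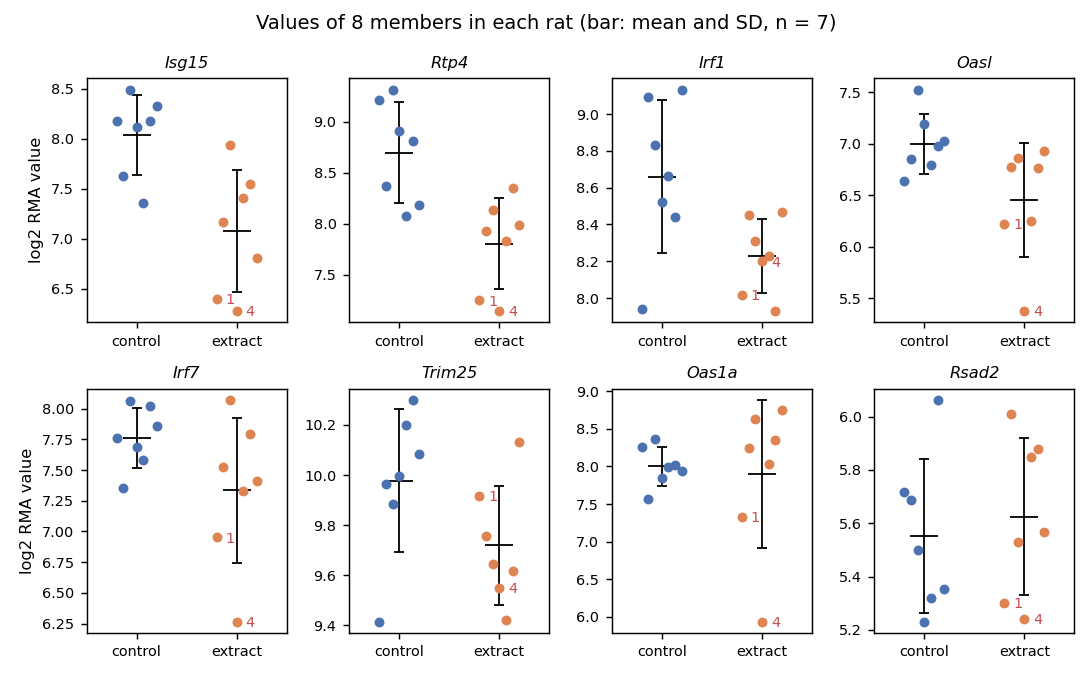
Log2 RMA value (vertical axes, which do not start at 0 and differ between panels) of 8 members in 7 control and 7 extract rats, with bars for the mean and SD and extract rats 1 and 4 numbered. In Isg15 and Rtp4 further extract rats lie low beside rats 1 and 4, in Oas1a the other 5 extract rats lie above the control mean, and in Irf1 and Trim25 the lowest control is control rat 1.

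Set side by side, the members divided by how much of their lower mean was left without extract rats 1 and 4. Over the 30 members the median log2 fold went from -0.19 to -0.038, with all genes at -0.0038, and 19 had a negative fold, against 51.4% of all genes. Of the 27 members with a negative fold, 23 had more than 50% of the extract deviation in the 2 rats, and 26 had a smaller fall without them. The exception was Trim25. In 9 of the 27 the fold became positive: Eif2ak2, Mx1, Mx2, Oas1a, Oas1b, Oas2, Bst2, Usp18 and Ifi27. The fold left without the 2 rats was 102% of the full one in Trim25, 88.9% in Irf1, 80.7% in Stat2, 72.8% in Rtp4, 69.3% in Isg15, 68.2% in Gbp2 and 55.4% in Dtx3l. It was 52.3% in Oasl, 31.7% in Irf7, 28.3% in Irf9 and 9.26% in Ifit3.

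With 5 extract rats against 7 controls, no member passed the adjusted threshold in limma, against 0.627% of all genes. At an unadjusted p under 0.05, Isg15, Rtp4 and Irf1 were lower, 3 members against 6.49% of all genes. Fewer rats were compared there, so a lost call can come from the smaller number as well as from a smaller difference. Leaving out control rat 1 instead gave 4 called members, Isg15, Rtp4, Irf1 and Stat2, and 11 lower at an unadjusted p under 0.05. Control rat 1 was the lowest control in Irf1 and Stat2, so their falls grew by construction in that fit. The share of all genes called in that fit is not given here. Whether the gain is particular to these members can therefore not be read from these counts.

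**Figure D4:**
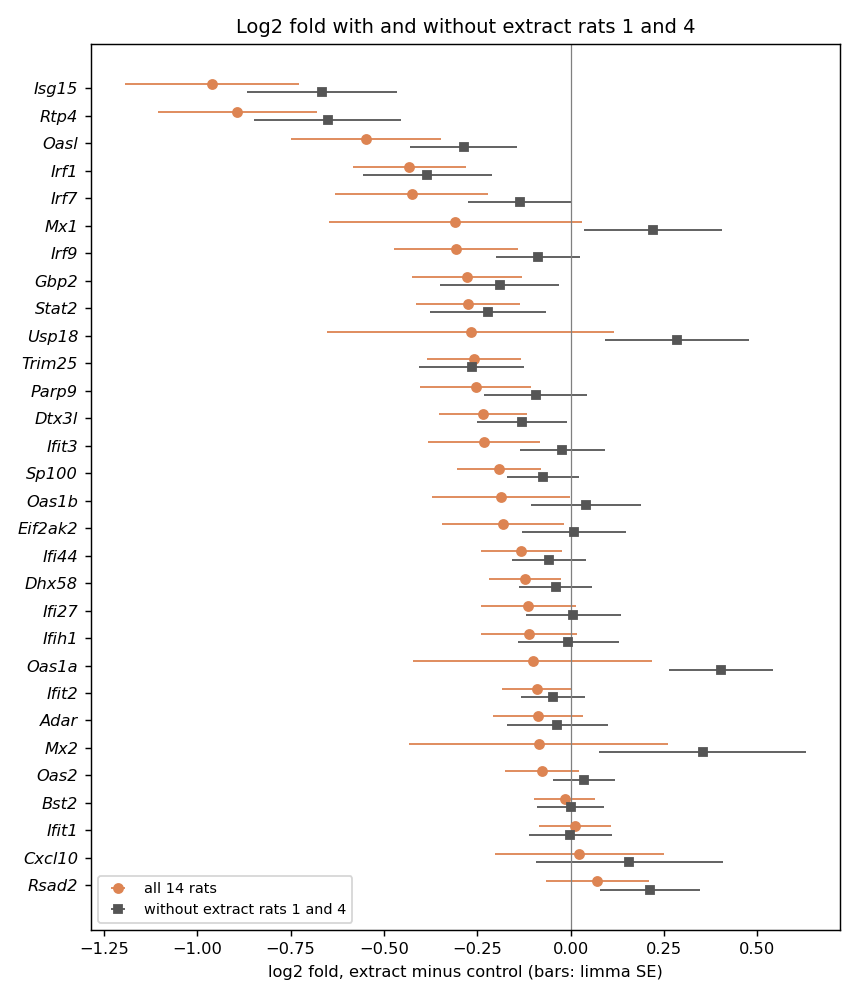
Log2 fold (extract minus control, horizontal axis, bars are limma's SE) of the 30 members over all 14 rats (circles) and without extract rats 1 and 4 (squares), ordered by the former. Isg15 and Rtp4 stay lowest in both, Trim25 and Irf1 hardly move, and Mx1, Mx2, Oas1a and Usp18 cross from below 0 to above it.

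The members also rose and fell together from rat to rat within the groups. After removing the group means, the 435 pairs of members had a median Pearson r of 0.37 over 14 rats and 39.5% lay above 0.5, where all pairs of genes had a median of 0.0099 and 8.70%. Without extract rat 4 the median over members was 0.32. Without extract rats 1 and 4 it was 0.19, with 21.6% above 0.5, against 0.013 and 10.2% over all gene pairs. Without control rat 1 and extract rat 4, the arrays of lowest weight, it was 0.31. These are descriptions over 14, 13 or 12 rats that share their arrays and their cell makeup, and a rat that is low throughout raises every pair.

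Each member was then set against the mean of the other 29. Mx1 followed the rest most closely (r = 0.93), then Irf9 (0.90), Oas1b (0.90), Oasl (0.90), Ifit3 (0.88), Irf7 (0.87) and Oas1a (0.86), and 14 members had an r over 0.7. Without extract rats 1 and 4 that number was 4, namely Oas1b (0.79), Adar (0.74), Oasl (0.72) and Mx1 (0.70). Oas1a dropped to 0.28 and Usp18 from 0.83 to 0.35. Isg15 and Rtp4, the members that fell, went from 0.64 to 0.14 and from 0.57 to 0.097. Irf1 (0.24 and 0.26) followed the others weakly in both. Bst2 (-0.074) and the dim Ifit1 (-0.32) did not follow them.

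Within the list, some pairs kept together apart from the 2 rats and others did not. Stat2 and Adar correlated at 0.88 with and without extract rats 1 and 4, and Parp9 and Dtx3l at 0.93 and 0.91. Control rat 1 was in both sets of rats and stood far below the other controls in Stat2 (8.32, next 9.02) and Adar (7.37, next 8.07). It was also low in Parp9 (8.20, next 8.79). How much of these 2 correlations rests on control rat 1 was not tested. Mx1 and Mx2 went from 0.90 to 0.80, and Oas1b and Oasl from 0.93 to 0.84. Isg15 correlated with Irf7 at 0.87 and 0.80 and with Ifi27 at 0.87 and 0.82. By contrast, Oas1a and Usp18 went from 0.88 to 0.26 and Mx1 and Oas1a from 0.91 to 0.50. Ifit2 and Ifit3, which are neighbours with no gene between them, correlated at 0.35 over 14 rats, near the median pair, and at 0.43 without both rats, above it.

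**Figure D5:**
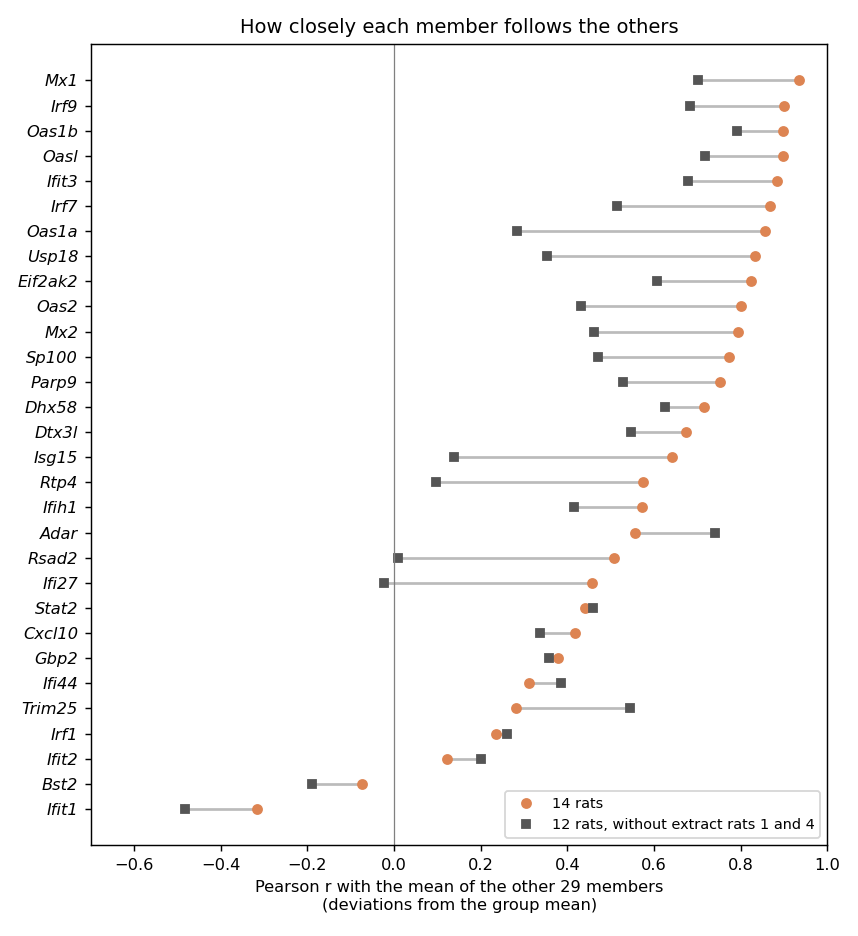
Pearson r of each member with the mean of the other 29, computed on deviations from the group mean, over 14 rats (circles) and over 12 rats without extract rats 1 and 4 (squares). Mx1, Irf9, Oas1b and Oasl lie near 0.90 over 14 rats, and Oas1a, Isg15, Rsad2, Ifi27, Usp18 and Rtp4 lose most when both rats are left out.

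Other genes of the pathway gave 81 measured of 124 listed, in ligands, receptors and JAK-STAT, nucleic acid sensing, and further interferon-stimulated genes. Of the 81, 3 fell and 0 rose at the adjusted threshold and 17 were lower and 0 higher at an unadjusted p under 0.05, where all genes gave 1.15%, 2.00%, 7.40% and 7.45% respectively. Of their folds 60 were negative, with a median of -0.096 (-0.046 without extract rats 1 and 4). The 5 measured ligands (Ifna4, Ifna5, Ifnb1, Ifng and Ifnk) all lay below the median probe, and 0 passed. Of 12 receptors, kinases and regulators, among them Ifnar1, Ifngr1, Jak1, Jak2 and Socs1, 0 passed. Of 12 sensing genes Irf5 fell, and of 52 interferon-stimulated genes Ifitm3 and Psmb8 fell.

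Psmb8, a proteasome subunit of the immunoproteasome, ranged from 9.27 (median 9.37) to 9.49 in controls and from 8.67 (median 9.002) to 9.26 in extract rats, with no overlap. Its log2 fold was -0.41 ± 0.084 (SE, adjusted p = 0.010) and -0.38 without extract rats 1 and 4 (adjusted p = 0.044). Ifitm3, a membrane protein that blocks virus entry, ranged from 9.67 (median 10.09) to 10.58 in controls and from 9.32 (median 9.66) to 9.79 in extract rats, and its log2 fold was -0.51 ± 0.11 (SE, adjusted p = 0.015), and -0.51 without both rats (adjusted p = 0.047). Irf5, a factor downstream of Toll-like receptors, ranged from 6.18 (median 6.22) to 6.39 in controls and from 5.73 (median 6.03) to 6.14 in extract rats, also with no overlap. Its log2 fold was -0.26 ± 0.070 (SE, adjusted p = 0.047). Without extract rats 1 and 4 the Irf5 call was lost (adjusted p = 0.075), and it was lost when any single rat other than extract rat 1 or 3 was left out (adjusted p from 0.059 to 0.093). In these 3 genes extract rats 1 and 4 supplied between 29.2% and 34.2% of the deviation, against 50.5% in Isg15 and 48.0% in Rtp4, the members that fell. Over the 52 other interferon-stimulated genes together, extract rats 1 and 4 were again the lowest of the 14 rats, each with a mean level of 7.10, against 7.22 to 7.36 in the other extract rats and 7.31 to 7.47 in controls.

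Markers of other liver cells are given beside these values, and most of their lists held no marker that passed the adjusted threshold. All 13 measured Kupffer cell and macrophage markers had negative folds and 2, Marco and Vsig4, fell; their mean level was 8.67 to 9.001 in controls and 8.33 to 8.64 in extract rats. Extract rats 1 (8.45) and 4 (8.39) were within the range of the other 5 extract rats on it, and extract rat 2, whose interferon score was -0.074, was lowest. Of the 6 neutrophil markers 0 passed, but extract rat 4 had the highest mean of all 14 rats, 4.89, against 4.21 to 4.46 in the other extract rats and 4.39 to 4.81 in controls. That mean includes S100a9, a neutrophil protein, in which extract rat 4 was highest (7.64, a deviation of 1.16 from the control mean). It was also highest in S100a8 (3.63), but not in Csf3r, Mpo, Camp or Mmp8, and its Mmp8 deviated by -0.21. Of the 6 neutrophil markers, 4 lay below the median probe. Extract rat 4 also had the highest Jchain, a plasma cell protein (7.39, against at most 6.30 in controls). In the same list of B and plasma cell markers it was not highest in Cd79b (6.19) or Ms4a1 (3.90), and its Ms4a1 deviated by -0.040. The mean of the 4 bile duct markers was highest in extract rat 4 as well (5.28, against at most 5.02 in the other rats). That rat was highest in Krt19, Krt7 and Spp1 but not in Epcam (5.88, against up to 6.06 in controls). Of these 4 markers, 3 lay below the median probe. Of the other lists, 1 of 5 stellate markers fell (Pdgfrb), and 0 of 10 T and natural killer cell, 0 of 3 B and plasma cell, 0 of 4 plasmacytoid dendritic cell, 0 of 5 endothelial, 0 of 4 bile duct and 0 of 8 hepatocyte markers passed. The part of these cells in the interferon values was not tested.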

How the data were processed

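Liver RNA of 14 rats was measured on 1 whole-transcript Affymetrix array per rat. The deposited values are log2 expression values for 29215 probes, and the submitters' processing notes name RMA and, as software, Affymetrix Expression Console 1.1.2. The RMA options and a genome build are not given in the sources used here. RMA makes differences near background too small, and probes were not screened for detection. Gene names are those of the platform annotation in GEO (15310 with 1 gene symbol, 323 with several, 13582 unnamed here), and 15279 identifiers matched the GRCr8 gene table. Where a gene had more than 1 probe (527 genes), the brightest was used. No filter or further normalization was applied.

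Groups and rat numbers come from the sample titles. The groups were compared by limma's two-sided moderated test (version 3.58.1 under R 4.3.3) with group as the only term. The Benjamini-Hochberg adjustment ran over 14506 genes, and adjusted values under 0.05 were called. Each fold is the extract mean minus the control mean with limma's SE, and group values are means ± SD. Precision is limited by the number of arrays. The fit was checked on simulated data before use. Those data had independent noise in each gene and the same spread in every rat. The check therefore does not cover genes that vary together or arrays that depart from their group. Scores, correlations and motif matches were computed in Python 3.11.15 with pandas 2.3.3 and are descriptions with no test; figures were made with matplotlib 3.10.9.

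The members, the other gene lists, the markers and the 2 rats left out were chosen with earlier results of these data known. The members described rat by rat are the 6 with the smallest p over all rats, the 3 with the smallest p without extract rats 1 and 4, the 2 with the largest and the 2 with the smallest share in those rats among members at an unadjusted p under 0.05, and the 1 with the largest positive fold; the other interferon genes are those called. Promoters are shown for up to 4 of these members that hold a motif, in order of p, and every member measured is named. Usp18, Mx1, Mx2 and the marker genes given by value were picked after their values were seen. Alternatives were repeated quantile normalization, median centring, a minimum mean of 6, the mean of all probes, array weights, a robust variance with an intensity trend, an adjusted p of 0.1, a replicate block by rat number, leaving out each rat, leaving out extract rats 1 and 4, and a longer ISRE core.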

Additional observations from a re-analysis of the deposited data

Results flagged for a closer look

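Of 68 groups of 7 rats tested for a value far from the rest (each member, the 3 other interferon genes that fell and the score, in controls and in extract rats), 6 held one whose gap to its neighbour exceeded Dixon's critical value, and chance marks about 1 in 20. Control rat 1 stood low in Stat2 (8.32, with the next control at 9.02), Adar (7.37, next 8.07) and Parp9 (8.20, next 8.79). Extract rat 4 stood low in Usp18 (4.31, next 6.32). Control rat 2 stood high in Cxcl10 (8.43, next 7.22) and control rat 6 in Sp100 (7.92, next 7.68).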

How the results depend on the processing

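The number of members called lower was 2 in the main comparison and 0 without extract rats 1 and 4, and it ranged from 0 to 4 over the fits that leave out 1 rat. The number lower at an unadjusted p under 0.05, 4 in the main comparison, was 9 with array weights and ranged from 4 to 11 over those fits. With the rat number as a replicate block 3 members were called and 7 were lower at an unadjusted p under 0.05, with Irf1 called (adjusted p = 0.030) and Ifitm3 lost (0.067). Shares of all genes are not given here for array weights, the block or the fits that leave out 1 rat. A change over all genes can therefore not be told apart from a change in the members. The labels do not say whether rats of the same number were paired. Correlations of same-numbered rats ran from -0.46 to 0.28, and 4 of 14 rats were closest to their own number. These values are descriptions and cannot settle whether the numbers pair the animals. The cause of the changes in the counts was not tested.

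Signs turned without extract rats 1 and 4 in Eif2ak2 (log2 fold 0.0090), Ifit1 (-0.00067), Mx1 (0.22), Mx2 (0.35), Oas1a (0.40), Oas1b (0.041), Oas2 (0.036), Bst2 (1.3e-05), Usp18 (0.29) and Ifi27 (0.0079), and with array weights in Mx2 (0.0055), Oas1a (0.11) and Cxcl10 (-0.010). Bst2 was 0.0021 with repeated quantile normalization and 0.019 with median centring. Over the fits that leave out 1 rat, log2 folds ranged from -0.072 to 0.053 in Ifit1, -0.49 to 0.0079 in Mx1, -0.28 to 0.19 in Mx2, -0.24 to 0.23 in Oas1a, -0.12 to 0.0013 in Oas2, -0.055 to 0.024 in Bst2, -0.42 to 0.13 in Usp18 and -0.052 to 0.23 in Cxcl10. All other members kept their sign in every alternative run. The Irf5 call was lost with every alternative except the looser adjusted p of 0.1, the minimum mean of 6, the mean of all probes and the fits without extract rat 1 or 3. The longer ISRE core gave the same 12 promoters in number. A mean near background limits what can be seen of Ifit1, and the other limits are the 7 rats per group and the single array per rat.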
